A study of Mus musculus with 3 samples.

Results

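The mRNA levels of 10 scavenger and C-type lectin receptors, Mrc1, Cd163, Msr1, Marco, Cd36, Clec7a, Clec10a, Mgl2, Cd209a and Clec4n, were examined in cells sorted from mice bearing kidney tumors. They were taken by name from a table of 33506 mouse genes, with no measured value in the rule, although earlier results of these data were known when the set was drawn up. All mice were BALB/C and carried tumors from cells injected into the kidney, which the labels name as Renca, a BALB/c renal carcinoma line, and the study's text as Renca Ch+ L+, its derivative with Cherry and luciferase. Macrophages of type 1 (M1) and of type 2 (M2) were sorted from 30 tumors on F4/80 and CD11b, and CD4 T cells from 4 spleens on TCRbeta and CD4, with cells pooled over mice. The labels give both day 14 and day 16 after tumor inoculation, and name both tumor and spleen for the CD4 T cells. Each subset was represented by 1 library, so that no difference given here has a replicate check and no p-value can be given. Levels are in FPKM, the number of sequenced fragments scaled by transcript length and by library size, so that levels of different genes can be compared.

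Scavenger receptors bind modified lipoproteins, dead cell material and microbes at the surface of phagocytes and carry them into the cell. C-type lectin receptors bind sugars. Some of them, such as the mannose receptor, mainly internalize what they bind, while others, such as dectin-1 and dectin-2, signal through the kinase Syk to Card9. In tumors, Mrc1 and Cd163 are widely used as markers of type-2 macrophages, and Cd209a and Mgl2 are also found on some dendritic cells.

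The labels of the libraries were checked against marker genes before the receptors were compared. The defining T-cell gene Cd3e was at 126 FPKM in the M2-labelled library, 0.141 in the CD4-labelled library and 0.131 in the M1-labelled library, and all 13 listed T-cell markers were highest in the M2-labelled library. The macrophage gene Csf1r was at 15.3 FPKM in the M2-labelled library, 519 in the CD4-labelled library and 279 in the M1-labelled library, and all 14 listed macrophage markers were lowest in the M2-labelled library. These levels go against the labels M2 and CD4. Samples kept their labels, and every comparison below rests on at least 1 library whose label and markers disagree. Emr1, which encodes F4/80, was at 215 FPKM in the CD4-labelled library and 45.3 in the M1-labelled library, while Itgam, which encodes CD11b, was at 201 and 299. In the CD4-, M1- and M2-labelled libraries the 8 B-cell markers summed to 0.547, 0.482 and 65.6 FPKM, and the 10 neutrophil markers to 11.1, 52.7 and 238. The 9 dendritic cell markers summed to 58.39, 220.4 and 211.4 FPKM in the same order, and the 10 kidney epithelial markers to 57.5, 41.3 and 109. Few genes carried some of these sums. Cdh16 made up most of the kidney epithelial sum in each library, and S100a8 and S100a9 most of the neutrophil sum. Most of the dendritic cell sum came from Ccr7 and Cd24a in the M2-labelled library, and from Itgax and Cd24a in the libraries labelled CD4 and M1. The content of these cell types was not tested. The depth, estimated from the smallest steps in the FPKM values, was 71.0 (library labelled CD4), 61.4 (M1) and 59.3 (M2) in units of 1000000 fragments.

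The levels covered a wide range among the 10 receptors. In the CD4-labelled library the order from the top was Mrc1 at 649 FPKM, Clec4n at 330, Msr1 at 262 and Mgl2 at 121. In the M1-labelled library it was Clec4n at 386 FPKM, Mgl2 at 292, Mrc1 at 215 and Msr1 at 203. These 4 genes therefore stood at the top in both, in a different order. Mrc1 lay above 99.8% of the genes with a level above 0 in the CD4-labelled library and above 98.8% in the M1-labelled library. In the M2-labelled library the highest of the 10 was Mrc1 at 19.5 FPKM, above 83.3% of genes, and the sum over the 10 receptors was 61.9 FPKM against 1467 in the CD4-labelled library and 1234 in the M1-labelled library. Of the 10 receptors, 4 were highest in the CD4-labelled library, 6 in the M1-labelled library and 0 in the M2-labelled library. Several identifiers had more than 1 row, and with all rows summed Cd163 was at 50.5, 13.1 and 3.90 FPKM in the CD4-, M1- and M2-labelled libraries, Cd36 at 12.3, 40.4 and 3.38, and Clec7a at 55.5, 167 and 6.70, with the order of the libraries as before. In sorted cell pools, fewer cells expressing a gene and less RNA per cell cannot be told apart.

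**Figure D1:**
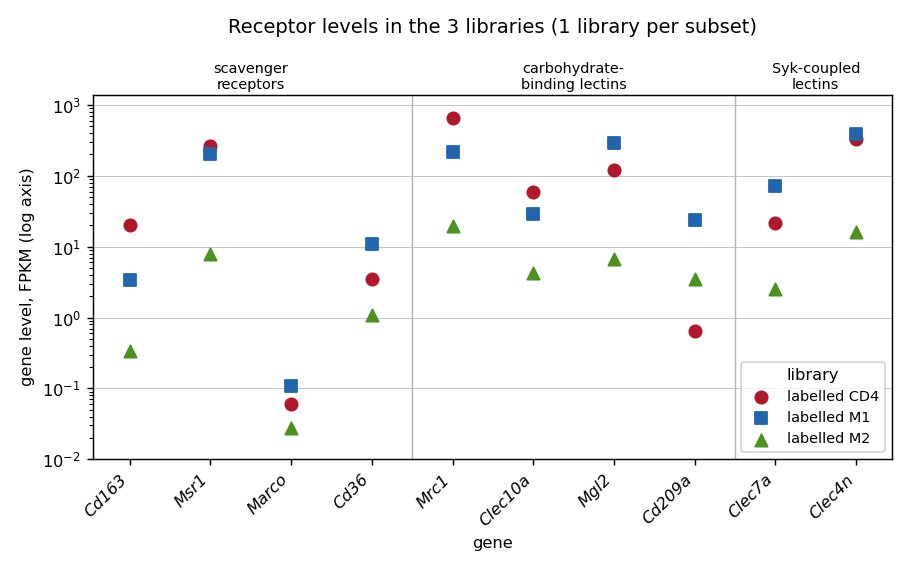
Gene level in FPKM on a log axis for each of the 10 receptors, with 1 point for each of the 3 libraries and no error bars because each subset had 1 library. The triangles of the M2-labelled library are the lowest of the 3 for 9 genes, Cd209a being the exception, and Marco is below 0.2 FPKM in each library.

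By the first complete rows, 5 of the receptors had 2 transcript forms above 0 in any library. With all rows summed Cd36 had 2 as well, Cd36-203 holding 71.5%, 73.3% and 68.1% in the CD4-, M1- and M2-labelled libraries. For the 5, the short coding sequences where the forms part are given here because the levels of the forms are compared further on. They were read from the mouse reference NCBIM37 (mm9), not from these libraries. Each runs 5′ to 3′ in the direction of the transcript. The lower-case bases are shared by both forms, and capitals mark bases that the other form lacks. Msr1 lies on the reverse strand of chromosome 8, and its forms part after the coding exon that ends at position 40693439.
Msr1-201: gtgtaggcggatcaaCCCCCCTTAAGACAG
Msr1-203: gtgtaggcggatcaaGATCAGTATAA
Clec4n lies on the forward strand of chromosome 6, and its forms part after position 123180611.
Clec4n-001: ttgcgagctgtgtggTGACTTACCAATTTA
Clec4n-004: ttgcgagctgtgtggaaaaaatgtggggat
Clec10a and Mgl2, on the forward strand of chromosome 11, part after positions 69981506 and 69947765.
Clec10a-001: aagagcctggtaaagctccttcccagtcct
Clec10a-201: aagagcctggtaaagCAGctccttcccagt
Mgl2-001: caaagtttgctctaattccttcccagtcct
Mgl2-201: caaagtttgctctaaCAGttccttcccagt
Cd163, on the forward strand of chromosome 6, parts after position 124278005.
Cd163-201: tgctgaaatcctcgggggtcattcagaggc
Cd163-202: tgctgaaatcctcggAAAATTCCAACAATT
In Clec10a and in Mgl2 the difference at this point is the same 3 bases at an exon start. Msr1-203 reaches its stop codon 8 coding bases after the point, whereas Msr1-201 continues into 2 further coding stretches of 189 and 131 bases, which hold the cysteine-rich domain of the type I receptor. Clec4n-004 skips a coding exon of 102 bases.

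The first comparison was between the libraries labelled CD4 and M1, which were both rich in macrophage transcripts. The receptors divided in this comparison. Cd163, Mrc1 and Clec10a were higher in the CD4-labelled library, whereas Cd209a, Clec7a, Cd36 and Mgl2 were higher in the M1-labelled library. Msr1, Clec4n and Marco differed by less than 2-fold. Called here means a difference of at least 1 in log2(FPKM + 1), that is 2-fold, a scale that understates the difference of low genes. By this rule 3 of the 10 were called higher in the CD4-labelled library, where 6.40% of the 12675 genes with at least 1 FPKM in any library were called higher. Of the 10 receptors 9 passed this filter, Marco being below it. In the other direction 4 of the 10 were called, where 6.58% of genes were called lower. The median difference over the 10 was -0.15, beside -0.001 over all 12675 genes.

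**Figure D2:**
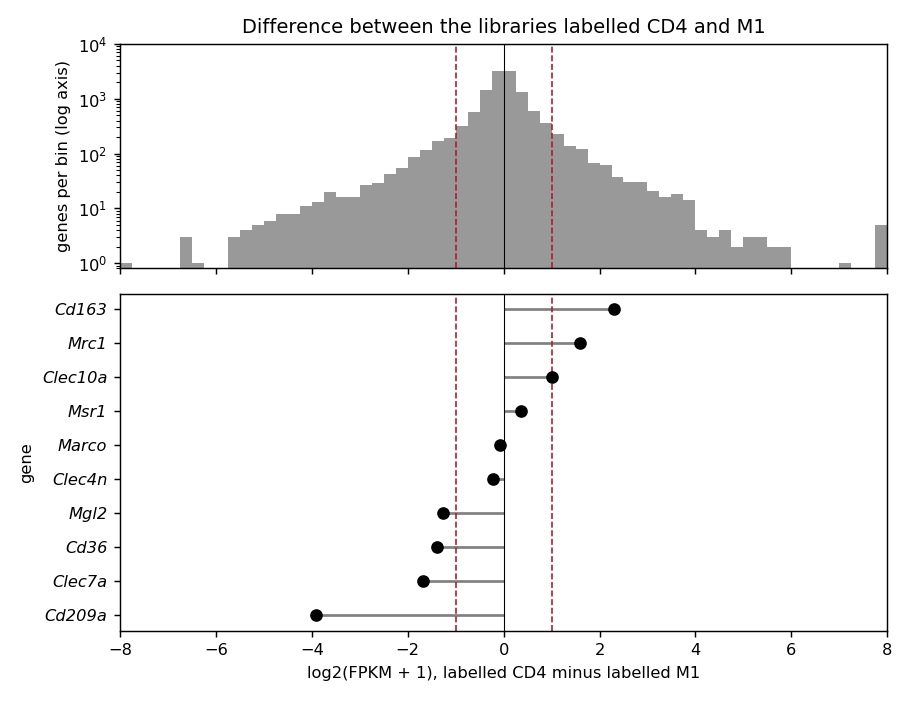
Upper panel: number of genes (log axis) by difference in log2(FPKM + 1) between the libraries labelled CD4 and M1, in bins of 0.25, with differences beyond 8 placed in the end bins. Lower panel: the same difference for the 10 receptors, from 2.30 for Cd163 to -3.90 for Cd209a, with dashed lines at a difference of 1 in either direction.

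Of the scavenger receptors, Cd163 takes up complexes of hemoglobin and haptoglobin. It (ENSMUSG00000008845, chr6:124254669-124280545) was at 20.3 FPKM in the CD4-labelled library, 3.34 in the M1-labelled library and 0.341 in the M2-labelled library. The CD4-labelled library was 6.08 times the M1-labelled library, a difference of 2.30 on the log2(FPKM + 1) scale and the largest of the 10 in this direction. With all rows summed the ratio was 3.86.

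Msr1, the class A receptor for modified low density lipoprotein, was on the other hand nearly level. It (ENSMUSG00000025044, chr8:40667054-40728032) was at 262 FPKM in the CD4-labelled library and 203 in the M1-labelled library, a ratio of 1.29, and at 7.96 in the M2-labelled library. All of the excess in the CD4-labelled library lay in the form Msr1-201. This form was at 58.8 FPKM there, 22.5% of the gene, and was listed at 0 in both other libraries, whereas Msr1-203 was at 203 FPKM in both the CD4-labelled and the M1-labelled library. Such a 0 may also come from an estimate that failed. When all rows assigned to an identifier were summed, Msr1-201 held 23.6% of the gene in the CD4-labelled library, 0.483% in the M1-labelled library and 25.5% in the M2-labelled library.

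Cd36, a receptor for fatty acids and oxidized lipoproteins, was higher in the M1-labelled library. It (ENSMUSG00000002944, chr5:17287508-17394777) was at 10.8 FPKM in the M1-labelled library, 3.51 in the CD4-labelled library and 1.08 in the M2-labelled library. The M1-labelled library was 3.07 times the CD4-labelled library. A second complete row of the gene, not part of these sums, was at 7.14, 5.62 and 2.30 FPKM in the M1-, CD4- and M2-labelled libraries. In that row alone the M1- and CD4-labelled libraries differed by less than 2-fold, whereas with all rows summed their ratio was 3.28. Cd36 is also expressed by endothelium, and the 9 endothelial markers summed to 15.1 FPKM in the M1-labelled library, 20.8 in the CD4-labelled library and 42.3 in the M2-labelled library, with 0 of them called between the libraries labelled CD4 and M1. Pecam1, which leukocytes also express, made up 35.0 FPKM of the sum in the M2-labelled library, and without it the other 8 summed to 13.3, 19.4 and 7.29 FPKM in the M1-, CD4- and M2-labelled libraries. Their part in the level of Cd36 was not tested.

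Marco, a class A scavenger receptor for bacteria and particles, was near the limit of detection. It (ENSMUSG00000026390, chr1:122371115-122401661) was at 0.108 FPKM in the M1-labelled library, 0.0596 in the CD4-labelled library and 0.0280 in the M2-labelled library. These levels stand for an estimated 13 fragments (95% exact Poisson interval 6.92 to 22.2), 8 fragments (3.45 to 15.8) and 3 fragments (0.619 to 8.77). The intervals cover counting error only, and their overlap is not a test of a difference. With so few fragments and 1 library per subset, no difference in Marco is read from these levels.

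Among the lectins that bind and internalize sugars, Mrc1, the mannose receptor, was the highest in the CD4- and M2-labelled libraries and second to Mgl2 in the M1-labelled library. It (ENSMUSG00000026712, chr2:14151041-14253684) was at 649 FPKM in the CD4-labelled library, 215 in the M1-labelled library and 19.5 in the M2-labelled library. The CD4-labelled library was 3.02 times the M1-labelled library. All of it lay in the single transcript of 30 exons, and the short noncoding transcript of the gene was listed at 0.

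Clec10a and Mgl2 are neighboring genes that encode lectins for galactose and N-acetylgalactosamine, and they went in opposite directions. Clec10a (ENSMUSG00000000318, chr11:69980125-69984336) was at 59.6 FPKM in the CD4-labelled library, 29.2 in the M1-labelled library and 4.31 in the M2-labelled library. Its difference of 1.01 between the first 2 of these lay just over the 2-fold limit. Mgl2 (ENSMUSG00000040950, chr11:69943831-69951052) was at 121 FPKM in the CD4-labelled library, 292 in the M1-labelled library and 6.72 in the M2-labelled library. Mgl2 was thus 2.41 times higher in the M1-labelled library than in the CD4-labelled library, and Clec10a 2.04 times higher in the CD4-labelled library. The coding sequences of Clec10a-001 and Mgl2-001 were identical at 92.0% of 913 aligned bases. Of the 51-base words in the coding transcripts of Clec10a 13.9% also occur in another gene, Mgl2, and of those of Mgl2 14.1% occur in another gene, Clec10a being one. A single read of 51 bases from these stretches does not tell the genes apart, although the other read of its pair may. The levels of these 2 genes are therefore uncertain to an extent that was not measured. The other 8 receptors shared 0 such words with the coding transcripts of other genes.

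Cd209a, the mouse gene named after the dendritic cell lectin DC-SIGN, had the largest difference of the 10 between the libraries labelled CD4 and M1. It (ENSMUSG00000031494, chr8:3743395-3748984) was at 23.7 FPKM in the M1-labelled library, 0.653 in the CD4-labelled library and 3.53 in the M2-labelled library. The M1-labelled library was 36.3 times the CD4-labelled library, a difference of -3.90 on the log2(FPKM + 1) scale. The level in the CD4-labelled library stood for an estimated 68.8 fragments. Cd209a was the only one of the 10 receptors that was not lowest in the M2-labelled library. Some dendritic cell markers differed in the same direction. Of 9 such markers 5 were called lower in the CD4-labelled library than in the M1-labelled library and 0 higher. Of all genes tested, 6.58% were called lower and 6.40% higher. The 9 markers summed to 58.39 FPKM in the CD4-labelled library, 220.4 FPKM in the M1-labelled library and 211.4 FPKM in the M2-labelled library. Like Cd209a, 4 of them were highest in the M1-labelled library, whereas 5 were highest in the M2-labelled library. Most of the sum came from Itgax and Cd24a in the libraries labelled CD4 and M1, and from Ccr7 and Cd24a in the M2-labelled library. Itgax (CD11c) was at 29.5, 124 and 5.30 FPKM in the CD4-, M1- and M2-labelled libraries, Ccr7 at 0.464, 6.44 and 122, and 0 of the 9 were listed at 0 in any library. Flt3 was at 0.227, 0.314 and 2.19 FPKM, and Zbtb46 at 1.21, 1.42 and 0.628. Flt3, Zbtb46, Xcr1 and Siglech were not called between the libraries labelled CD4 and M1. Xcr1 went the other way, with 0.432 FPKM in the CD4-labelled library against 0.194 in the M1-labelled library. The part of dendritic cells in the level of Cd209a, Mgl2 or Clec7a was not tested.

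The 2 lectins that signal through Syk differed from each other. Clec7a (dectin-1, ENSMUSG00000079293, chr6:129411611-129422790) binds beta-glucan of fungal walls. It was at 70.9 FPKM in the M1-labelled library, 21.5 in the CD4-labelled library and 2.53 in the M2-labelled library, so that the M1-labelled library was 3.30 times the CD4-labelled library. A further row of the same transcript identifier, not part of these sums, was at 64.8, 33.2 and 3.89 FPKM in these libraries. In that row alone the M1- and CD4-labelled libraries differed by less than 2-fold, whereas with all rows summed their ratio was 3.00. Clec4n (dectin-2, ENSMUSG00000023349, chr6:123179861-123197039) binds mannans and signals through the adaptor encoded by Fcer1g. It was at 386 FPKM in the M1-labelled library, 330 in the CD4-labelled library and 15.9 in the M2-labelled library, and the ratio of the M1-labelled library to the CD4-labelled library was 1.17.

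Of 10 genes listed under lectin signalling, 1 was called lower and 0 higher in the CD4-labelled library. Beside them stood 6.58% and 6.40% of all genes tested, so that the count is near the background. Syk, the kinase, was at 46.1 FPKM in the CD4-labelled library and 62.3 in the M1-labelled library. Card9, its downstream adaptor, was at 29.8 and 35.2 FPKM, and Fcer1g at 530 and 498. Malt1, a protease of the Card9 complex, was called lower, at 6.65 FPKM in the CD4-labelled library and 21.0 in the M1-labelled library.

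The other genes of the 2 families were examined from lists. Of 31 other C-type lectins, 7 were called lower in the CD4-labelled library than in the M1-labelled library and 0 higher. Of all genes tested, 6.58% were called lower and 6.40% higher. The 7 were Clec4e, Asgr2, Clec4b1, Clec4d, Cd209c, Cd209d and Clec12a. Clec4e (Mincle, a receptor for mycobacterial glycolipid) was at 4.11 FPKM in the CD4-labelled library and 29.5 in the M1-labelled library, and Clec4d, its partner, at 8.62 and 37.2. Clec12a, an inhibitory receptor for uric acid crystals, was at 38.3 and 80.3 FPKM. The related genes Clec4a1, Clec4a2 and Clec4a3 were not called, with Clec4a3 at 103 FPKM in the CD4-labelled library and 91.9 in the M1-labelled library. Only 18 of the 31 reached 1 FPKM in any library.

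Of 17 other scavenger receptors, 3 were called higher in the CD4-labelled library and 1 lower, and 11 reached 1 FPKM in any library. Beside them, 6.40% of all genes tested were called higher and 6.58% lower, so that the count of 1 lower is near the background. Stab1, which takes up acetylated lipoprotein and matrix fragments, was at 379 FPKM in the CD4-labelled library and 37.9 in the M1-labelled library, a difference of 3.29 on the log2(FPKM + 1) scale. Fcrls, an Fc receptor-like gene with a scavenger domain, was at 317 and 107 FPKM, and Cxcl16, which also acts as a receptor for oxidized lipoprotein, at 169 and 81.2. Olr1, the lectin-like receptor for oxidized lipoprotein, was called lower, at 0.601 FPKM in the CD4-labelled library and 4.29 in the M1-labelled library.

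**Figure D3:**
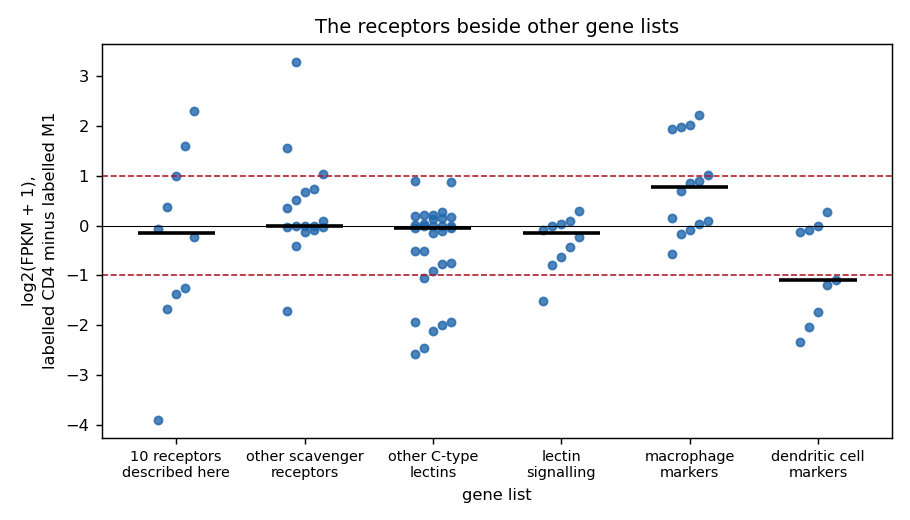
Difference in log2(FPKM + 1) between the libraries labelled CD4 and M1, with 1 point for each gene of 6 lists, black bars at the list medians and dashed lines at a difference of 1. Genes near 0 FPKM lie near 0 by construction, and Fcer1g and Tyrobp are in both the signalling and the macrophage list. Points of the other C-type lectins lie beyond the lower line and not beyond the upper one.

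Regulators known to act on these receptors were given by their levels. Of 11 genes, 2 were called higher in the CD4-labelled library and 1 lower, beside 6.40% and 6.58% of all genes tested. No result about the list is read from counts this small. Maf, a transcription factor of macrophages, was at 132 FPKM in the CD4-labelled library and 12.6 in the M1-labelled library. Il4ra, the receptor chain for interleukin 4, was at 69.6 and 23.0 FPKM. Irf4, a transcription factor of dendritic cells and alternatively activated macrophages, was called lower, at 2.07 and 17.3 FPKM. Spi1, which encodes PU.1, was at 112 and 139 FPKM, and Pparg at 2.48 and 2.61.

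Macrophage markers did not move evenly between these libraries, and their values bear on the scale of the comparison. Of the 14 markers 5 were called higher in the CD4-labelled library and 0 lower, beside 6.40% and 6.58% of all genes tested. The median ratio of the markers was 1.76, with a range of 0.672 to 4.76. Cd163, at 6.08, lay above this range. With all rows summed, an alternative added after seeing the data, they lay at 72.1% to 1828% of the M1-labelled library, with median 153%. Cd163 was then inside the range at 386%. With the libraries scaled to this list, a scaling chosen after seeing the data, Cd163 alone was called higher in the CD4-labelled library (1.38 on the log2 scale), Mrc1 was at 0.79 and Clec10a at 0.22. Clec4n, at -1.02, joined the receptors called lower, which were then 5. Mrc1 and Clec10a were therefore not called relative to the macrophage markers.

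The second comparison was between the libraries labelled M2 and M1. The M2-labelled library had the highest level of all 13 T-cell markers and the lowest of all 14 macrophage markers. This pair therefore cannot be read as the study's type-2 against type-1 macrophages. All receptors except Marco were called lower in the M2-labelled library, which is 9 of 10, where 14.2% of the 12675 genes were called lower. None of the 10 was called higher, where 16.6% of genes were. Levels in the M2-labelled library were 2.30% of those in the M1-labelled library for Mgl2, 3.56% for Clec7a, 3.92% for Msr1 and 4.13% for Clec4n. For Cd36 the M1-labelled library was 9.99 times the M2-labelled library. The share was 9.08% for Mrc1, 10.2% for Cd163, 14.8% for Clec10a and 14.9% for Cd209a. The median over the 10 was 9.55%, and the median log2 difference was -2.95 beside 0.09 over all genes tested.

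Macrophage markers moved with the receptors in this comparison. All 14 were called lower in the M2-labelled library, at a median of 10.5% of the M1-labelled library, from 4.93% to 20.2%. Mgl2, Clec7a, Msr1 and Clec4n were below this range and Mrc1, Cd36, Cd163, Clec10a and Cd209a inside it. Marco, at 25.9%, cannot be placed, since its value rests on an estimated 3 against 13 fragments. With all rows summed, an alternative added after seeing the data, the markers ranged from 5.02% to 20.2%. Msr1 was then inside the range at 5.94% and Cd163 above it at 29.8%, while Mgl2, Clec7a and Clec4n were still below it. Fcer1g was at 32.3 FPKM in the M2-labelled library and 498 in the M1-labelled library, and Syk at 12.6 and 62.3. The part of macrophage content in these differences was not tested.

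**Figure D4:**
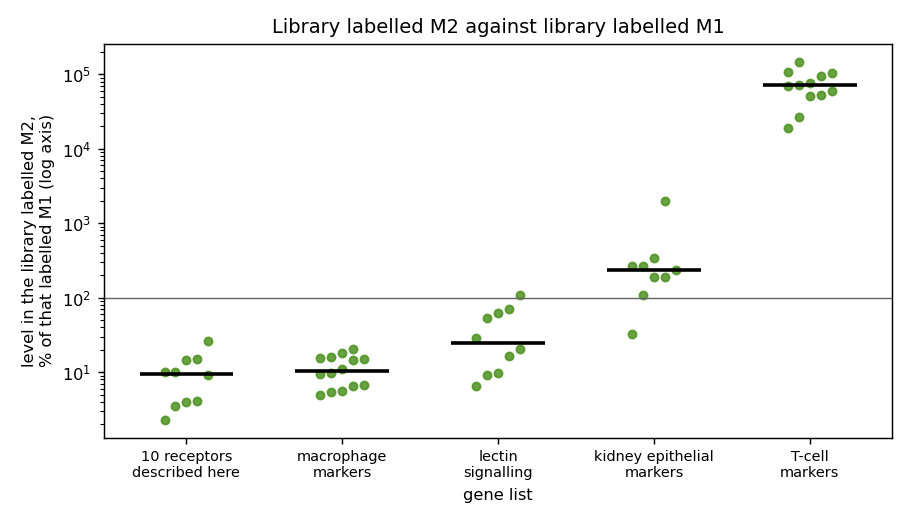
Level in the M2-labelled library as a percentage of the M1-labelled library on a log axis, with 1 point for each gene above 0 in both and black bars at the medians of the genes drawn. The 10 receptors and the macrophage markers lie between 2.30% and 25.9%, and all T-cell markers lie above 100%.

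In the third comparison, between the libraries labelled M2 and CD4, 8 of the 10 receptors were called lower in the M2-labelled library, where 15.0% of genes were called lower. Cd209a was called higher there, where 16.9% of genes were, and Marco was not called. Levels in the M2-labelled library were 1.68% of those in the CD4-labelled library for Cd163, 3.01% for Mrc1, 3.04% for Msr1 and 4.83% for Clec4n. With all rows summed the share of Cd163 was 7.71%. The first-row shares were 5.54% for Mgl2, 7.24% for Clec10a, 11.8% for Clec7a and 30.7% for Cd36. For Cd209a the M2-labelled library was 5.41 times the CD4-labelled library. The median log2 difference was -3.75 beside 0.10 over all genes tested. Macrophage markers were at a median of 4.77% here, from 2.95% to 19.5%, and all 14 were called lower. With all rows summed the markers ranged from 0.842% to 19.5%. Cd163 was below the range by its first-row share and inside it with all rows summed.

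In the family lists the genes that went the other way were few. Ly75 (DEC-205), an endocytic lectin of dendritic cells that lymphocytes also express, was at 8.92 FPKM in the M2-labelled library, 0.883 in the M1-labelled library and 0.107 in the CD4-labelled library. Clec2d, a ligand of the natural killer cell receptor family, was at 80.2, 24.0 and 45.6 FPKM in these libraries, and was called only against the M1-labelled library. Ly75 and Clec2d were the 2 of 31 other C-type lectins called higher in the M2-labelled library than in the M1-labelled library. Of all genes tested, 16.6% were called higher. Lower calls were made for 13 of the 31, beside 14.2% of all genes tested. Cd209d, at 2.36 FPKM in the M2-labelled library and 0.374 in the CD4-labelled library, was called higher against that library, as Cd209a was.

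Transcript forms were compared within each gene as shares of its FPKM. Clec4n-004, the form without the exon of 102 bases, held 32.5% of Clec4n in the CD4-labelled library, 36.4% in the M1-labelled library and 28.0% in the M2-labelled library. Clec10a-201, with 3 additional bases, held 43.0%, 36.2% and 33.4% of Clec10a in the same order. Mgl2-201, which has the same 3 bases and a further 144 coding bases, held 22.4%, 28.2% and 20.4% of Mgl2. The shares of these 3 genes thus lay close together across libraries whose gene levels differed up to 43.5-fold, and without replicates the remaining differences cannot be told from error.

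Cd163-201 held 62.8% of Cd163 in the CD4-labelled library and 63.1% in the M1-labelled library, and it was listed at 0 in the M2-labelled library, where the whole gene was at 0.341 FPKM. Cd163-202 carries 83 bases more near the end of the coding sequence, which shift the reading frame, and further coding stretches of 12 and 19 bases. These shares depended on how repeated rows were counted. Summed over all 12 rows of Cd163, the share of Cd163-201 was 25.2% in the CD4-labelled library, 64.1% in the M1-labelled library and 33.8% in the M2-labelled library. The forms of Cd163 therefore could not be compared firmly from these values.

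**Figure D5:**
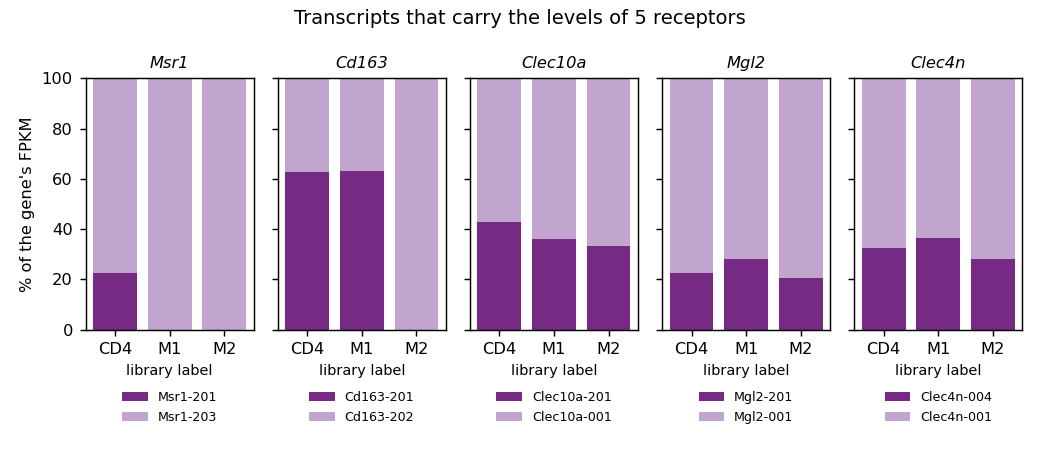
Share of each gene's FPKM held by its 2 transcripts with a level above 0, as stacked bars that add to 100% for each library. The dark part of Msr1 is present in the CD4-labelled library alone, at 22.5%, and the parts of Clec10a, Mgl2 and Clec4n are similar in the 3 libraries.

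Genes with a pattern most like that of Msr1 and Mrc1, the scavenger receptor and the lectin with the highest level in any 1 library, were sought by the distance between centred log2(FPKM + 1) values over the 3 libraries, among 7033 other genes with at least 10 FPKM in any library. Nearest to Mrc1 were Fcgr3 at a distance of 0.138, Fcrls at 0.203 and Dab2 at 0.307. Fcgr3 was at 296 FPKM in the CD4-labelled library, 97.2 in the M1-labelled library and 9.51 in the M2-labelled library. Nearest to Msr1 were Sft2d1 at 0.129, Hsd3b7 at 0.155 and Sdc3 at 0.179, of which Sft2d1 and Hsd3b7 were listed at 0 in the M2-labelled library. Such a 0 may also come from an estimate that failed, so the likeness of Sft2d1 and Hsd3b7 to Msr1 is uncertain. Only 2 genes lay within 0.25 of Mrc1 and 6 within 0.25 of Msr1. With 3 libraries this likeness is a description.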

How the data were processed

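RNA of 3 sorted cell subsets, 1 library each, was analysed. The authors aligned paired reads of 51 bases with TopHat 1.4.1 and Bowtie 0.12.8 to MM9, and used Cufflinks 2.1.0 guided by Ensembl 67 to estimate transcripts. The deposited values are FPKM, with a dash in place of a value in some rows. Cufflinks shares fragments between overlapping transcripts by a model. Identifiers were joined to GENCODE for NCBIM37 (Ensembl 65), where 88278 of 90430 were found. For each identifier the first row with values in all 3 columns was kept, and rows were summed per gene. Differences were taken on log2(FPKM + 1), and 2-fold differences were called. Syk and Spi1 were matched through RefSeq synonyms. The commonest small product of FPKM and length among transcripts of 2500 to 8000 bases was taken as 1 fragment, which gave the depth. Calls and depth were tried on simulated data, in which the changes put in lay well beyond the 2-fold limit and the noise was small. That trial gives no error rate for the calls in these libraries. The receptors and gene lists were chosen with earlier results of these data known. The genes named were the 10 receptors, list members past the 2-fold difference (at most 12 a list), label checks, and the 3 nearest genes of 2 receptors. Other list genes named, such as Syk, Card9, Clec4a3, Spi1, Pparg, Flt3 and Zbtb46, were chosen after their values were seen. Alternatives were another pseudocount, all rows, scalings, coding transcripts and a 4-fold limit. Python 3.11.15, numpy 2.4.6, pandas 2.3.3 and matplotlib 3.10.9 were used.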

Additional observations from a re-analysis of the deposited data

How the results depend on the processing

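No paired analysis was possible because no subset was sequenced in more than 1 library. Under a pseudocount of 0.1 FPKM, all rows summed, protein-coding transcripts only and scaling by the median ratio, all counts of receptors called stayed within 1.5 times and the medians over the 10 receptors within 1.5-fold. Single receptors moved more. Under the pseudocount of 0.1 FPKM, 6 of the 30 differences moved by over 1.5-fold, and with all rows summed 2 did. With all rows summed, the ratio of Cd163 between the libraries labelled CD4 and M1 went from 6.08 to 3.86.

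Rescaled to a total of 1000000, which lowers all levels toward the pseudocount, receptors called between the libraries labelled CD4 and M1 were 1 higher and 2 lower. In the library labelled M2 5 were lower than in M1 (median -1.25) and 5 lower and 0 higher than in CD4 (median -1.03). At a 4-fold limit the calls between CD4 and M1 were 1 higher and 1 lower, and 0 were higher in M2 than in CD4.

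Scaling by the macrophage markers, chosen after seeing the data, removes by construction the gap of those markers. The library labelled CD4 then had 1 receptor called higher than M1. In the library labelled M2 4 were lower than in M1 (median -0.011) and 1 lower and 2 higher than in CD4, where the median turned to 0.10. Against M1, Cd163 turned to 0.059, Cd36 to 0.055, Clec10a to 0.595 and Cd209a to 0.599. Against CD4, Cd36 turned to 1.76, Clec10a to 0.38, Mgl2 to 0.009 and Clec7a to 0.99.

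With no filter on low values, the shares of all genes called were 2.42% higher and 2.49% lower for CD4 against M1, 6.27% and 5.38% for M2 against M1, and 6.40% and 5.68% for M2 against CD4.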
